A study of Rattus norvegicus with 9 samples.

Results

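The proteasome genes were examined in RNA sequencing data from rat liver as 1 gene family, chosen by name. Every gene row whose symbol begins with Psma to Psmg followed by a digit was taken (49 rows), and those at 1 RPKM or more in at least 3 of the 9 libraries were kept (47 members, of 11124 genes that passed the same filter and 40154 rows in all). RPKM scales reads by gene length and library total, so levels can be compared between genes. The 2 rows under the filter were Psma8, a testis-specific alpha subunit, at 0 to 0.200 RPKM, and Psmb11, the thymus-specific catalytic subunit, which was above 0 in 1 library, HepLPC replicate 1, at 0.0392 RPKM. Just inside the filter lay Psmc3ip, at 0.713 to 1.75 RPKM; it matches the name pattern but encodes a meiotic recombination factor that binds a proteasome ATPase, and it is no subunit, so 46 members are proteasome genes proper.

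All animals were wild-type Sprague-Dawley rats aged 5 months. The normal group (3 libraries) received neither carbon tetrachloride (CCl4), a hepatotoxin that scars the liver, nor an injection. The PBS group (3 libraries) were rats with cirrhosis that received an injection of phosphate-buffered saline. The HepLPC group (3 libraries) had the same disease and received rat HepLPCs, progenitor-like liver cells derived from hepatocytes. RNA came from whole liver, so fewer cells of a type and less RNA per cell cannot be told apart, and in comparisons with normal livers injury and injection cannot be told apart either. The labels number the replicates without saying whether each is another animal. The p-values therefore measure only the spread among these libraries, and some of it may be technical.

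The proteasome is the protease that degrades proteins tagged with ubiquitin. Its 20S core is a barrel of alpha rings, which gate the entrance, around beta rings, of which Psmb5, Psmb6 and Psmb7 are catalytic. The 19S regulatory particle, built of ATPase (Psmc) and non-ATPase (Psmd) subunits, binds ubiquitin chains, removes them and unfolds the substrate. Under interferon gamma, and in immune cells, Psmb8, Psmb9 and Psmb10 replace Psmb5, Psmb6 and Psmb7 in newly built cores, which gives the immunoproteasome, a source of peptides for MHC class I. Interferon gamma also induces Psme1 and Psme2, whose products form the PA28 activator, an alternative cap. When proteasome activity is short, the transcription factor Nfe2l1 raises the constitutive subunit genes together, and Nfe2l2 (NRF2) acts on some of them under oxidative stress.

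The promoters below are shown because the contrast between inducible and constitutive subunits is the one the groups were compared on. Each is the 250 bases before the 1 start per gene that the RefSeq promoter table gives, 5′ to 3′ in the direction of transcription, on the rat build GRCr8; 43 of the 47 members matched an entry. That start is not always the outer end of the gene: 17 of the 43 windows reach into the gene's own span in the RefSeq gene table, by 3 to 250 bases, and 6 of them lie wholly inside it. Windows with more than 30 bases inside the span are not printed, and the printed ones have 18 (Psmb8) or 0. Capitals mark matches, on either strand, to 4 motifs: a GAAA repeat with any 2 bases between its copies (core of the interferon-stimulated response element), TTCNNNGAA (gamma-activated site), TGACNNNGC (core of the antioxidant response element) and the CCAAT box. The windows are Psmb8 at chr20:4657032-4657281 (minus strand), Psmb5 at chr15:32047380-32047629 (minus), Psmb10 at chr19:50743293-50743542 (minus) and Psmb7 at chr3:42827471-42827720 (minus).
Psmb8: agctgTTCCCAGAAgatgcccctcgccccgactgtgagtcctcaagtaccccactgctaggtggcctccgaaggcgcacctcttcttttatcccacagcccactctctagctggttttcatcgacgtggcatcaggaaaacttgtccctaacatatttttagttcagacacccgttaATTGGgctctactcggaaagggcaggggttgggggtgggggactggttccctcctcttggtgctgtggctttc
Psmb5: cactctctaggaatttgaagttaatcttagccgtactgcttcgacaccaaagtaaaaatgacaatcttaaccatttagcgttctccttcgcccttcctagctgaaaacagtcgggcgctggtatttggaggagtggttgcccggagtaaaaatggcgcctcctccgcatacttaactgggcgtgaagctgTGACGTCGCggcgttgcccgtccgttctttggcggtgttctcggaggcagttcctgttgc
Psmb10: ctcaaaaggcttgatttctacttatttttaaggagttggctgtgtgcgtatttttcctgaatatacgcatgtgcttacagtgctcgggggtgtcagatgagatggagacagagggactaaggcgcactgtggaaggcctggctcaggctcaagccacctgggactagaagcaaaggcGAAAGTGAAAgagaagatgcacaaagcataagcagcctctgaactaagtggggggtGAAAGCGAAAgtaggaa
Psmb7: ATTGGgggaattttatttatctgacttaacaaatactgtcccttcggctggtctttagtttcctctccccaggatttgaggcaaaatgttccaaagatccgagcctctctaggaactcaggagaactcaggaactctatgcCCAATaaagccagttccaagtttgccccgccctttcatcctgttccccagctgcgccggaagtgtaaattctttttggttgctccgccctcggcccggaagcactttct

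The Psmb10 window holds the interferon-stimulated core at 2 places, 73 to 64 and 17 to 8 bases before the table's start, and the Psmb7 window holds CCAAT boxes only. The Psmb8 window holds a gamma-activated site 245 to 237 bases before the start and a CCAAT box, and the Psmb5 window an antioxidant core 60 to 52 bases before. The Psme2 window (chr15:33052752-33053001, minus strand, not printed) holds the interferon-stimulated core once, but it lies wholly inside the gene's span, so that match is not placed before every start of the gene. No match to any of the 4 motifs lies in the windows of Psmb9 (chr20:4668750-4668999, plus strand), of which 48 bases are inside the span, and Psme1 (chr15:33038721-33038970, plus strand), of which 9 are; neither is printed. Over the 43 members with a promoter, the interferon-stimulated core occurred in 5 (11.6%, against 3.29% of all 27457 promoters of the same length). The gamma-activated site occurred in 4 (9.30% against 7.52%), the antioxidant core in 7 (16.3% against 10.2%) and the CCAAT box in 21 (48.8% against 34.3%). In Psmb2 a CCAAT box and an antioxidant core share 1 base, and no other matches overlap. Members are GC-richer than the average promoter (median 57.2% against 52%), and a letter match is a description of sequence, not a binding site.

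Proteasome genes were expressed throughout, and their levels differed by their place in the complex. By class median the alpha and constitutive beta genes of the 20S core were highest, the 19S genes lower, the immunoproteasome genes of the core below those, and the assembly chaperones lowest. In normal livers the 7 alpha genes had a median of 71.7 RPKM (over the genes' group means) and the 7 constitutive beta genes 62.1 RPKM. The 6 ATPase genes stood at 36.3 RPKM and the 11 non-ATPase genes at 32.0 RPKM. The 3 immunoproteasome genes were at 27.1 RPKM, below their constitutive counterparts in every library. The 3 chaperones of the 19S base (Psmd5, Psmd9, Psmd10) had 14.6 RPKM and the 4 chaperones of the 20S core (Psmg1 to Psmg4) 8.17 RPKM. The highest member in each group was Psme1, the alpha chain of PA28, at 127 RPKM in normal, 177 in PBS and 150 in HepLPC livers (group means). Among alpha genes Psma3 was lowest, at 32.0 RPKM in normal livers, and it has a gene model of 3166 bases where the other 6 have 852 to 1174.

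**Figure D1:**
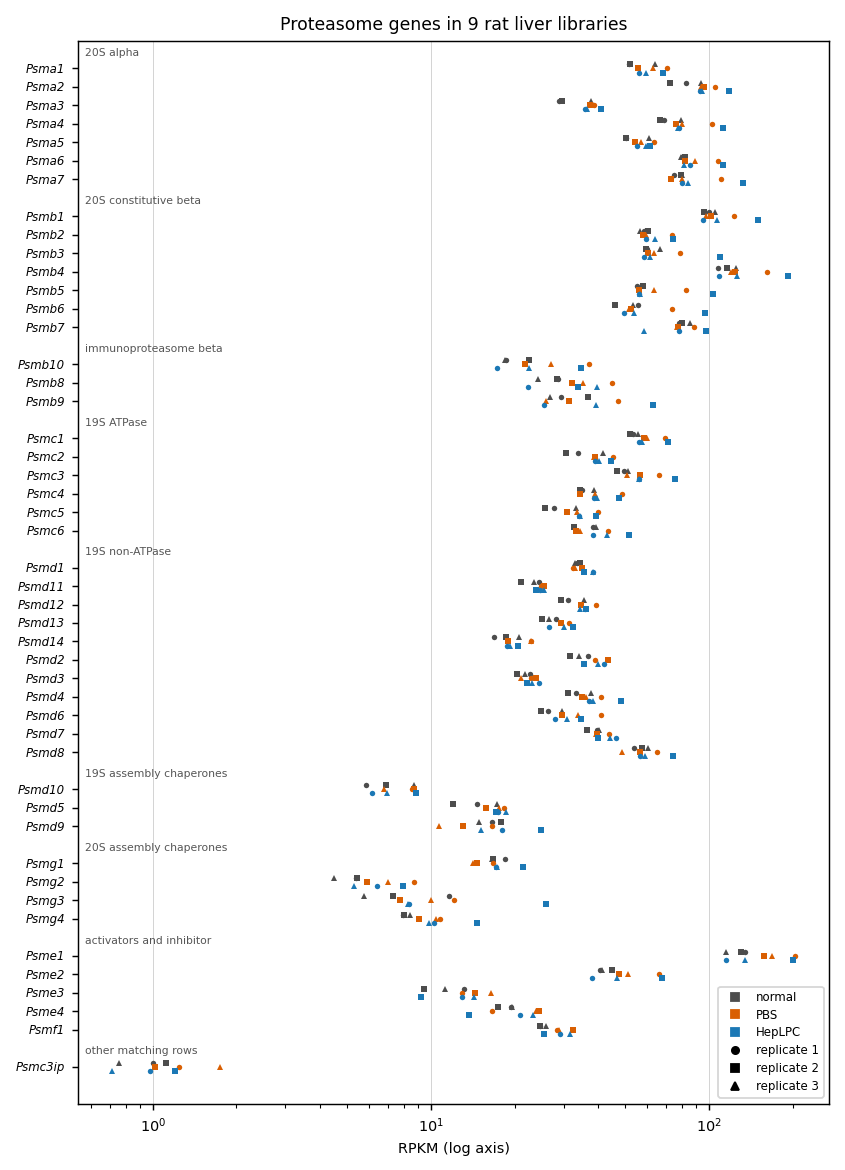
RPKM (log axis) of the 47 members in each of the 9 libraries, ordered by class; colour marks the group and shape the replicate number. Libraries of the 3 groups intermix for most genes, and the class medians fall from the alpha and constitutive beta genes (71.7 and 62.1 RPKM in normal livers) to the assembly chaperones (14.6 and 8.17 RPKM).

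No proteasome gene passed the test between any groups. The test was limma on log2(RPKM + 1) over the 11124 genes, with all 9 libraries in 1 model and a Benjamini-Hochberg adjusted p under 0.05 as the call. For PBS against normal 0 of 47 members were called, where 11.3% of all tested genes were (10.4% higher and 0.944% lower). For HepLPC against PBS 0 of 47 were called, where 3.07% of all genes were, and for HepLPC against normal 0 of 47, where 0.0809% were. At an unadjusted p under 0.05 the counts were 4, 1 and 1 of 47, against 27.3%, 16.1% and 9.31% of all genes. The smallest adjusted p of a member was 0.148 (Psmd2) for PBS against normal, 0.264 (Psmd9) for HepLPC against PBS and 0.399 (Psmg4) for HepLPC against normal, all from limma. With voom on reads recovered from the RPKM values the count was also 0 of 47 in each comparison, where 7.03%, 1.47% and 0% of all genes were called.

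The 95% intervals around the estimates were of this size. The interval of the fold change lay within 2-fold in either direction for 45 of 47 members for PBS against normal, 46 for HepLPC against PBS and 45 for HepLPC against normal (of 11124 genes, 9068, 9448 and 9918). It lay within 1.5-fold for 28, 33 and 26 of 47 members (of 11124 genes, 4224, 5186 and 6125). The genes whose interval passed 2-fold were Psmb10 and Psmg3 (PBS against normal), Psmg3 (HepLPC against PBS) and Psmb9 and Psmg3 (HepLPC against normal).

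Most members leaned upward in PBS livers, as most genes did. The log2 fold change for PBS against normal was above 0 in 42 of 47 members, with a median of 0.19 beside 0.18 over all genes. With libraries rescaled by the median of ratios, the median over all genes moved to -0.01 and that of the members to -0.04, with 17 of 47 above 0. All-gene calls then split into 566 higher and 216 lower in place of 1157 and 105. For HepLPC against PBS the members' median was 0.04 and that of all genes -0.14, and 26 of 47 were above 0. That split moved with the scaling: it was 42 of 47 above 0 (median 0.22) with the median of ratios and 15 of 47 (median -0.03) with libraries rescaled to 1 RPKM sum. For HepLPC against normal the members' median was 0.20 and that of all genes 0.05, but without HepLPC replicate 2 these were 0.09 and 0.09.

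**Figure D2:**
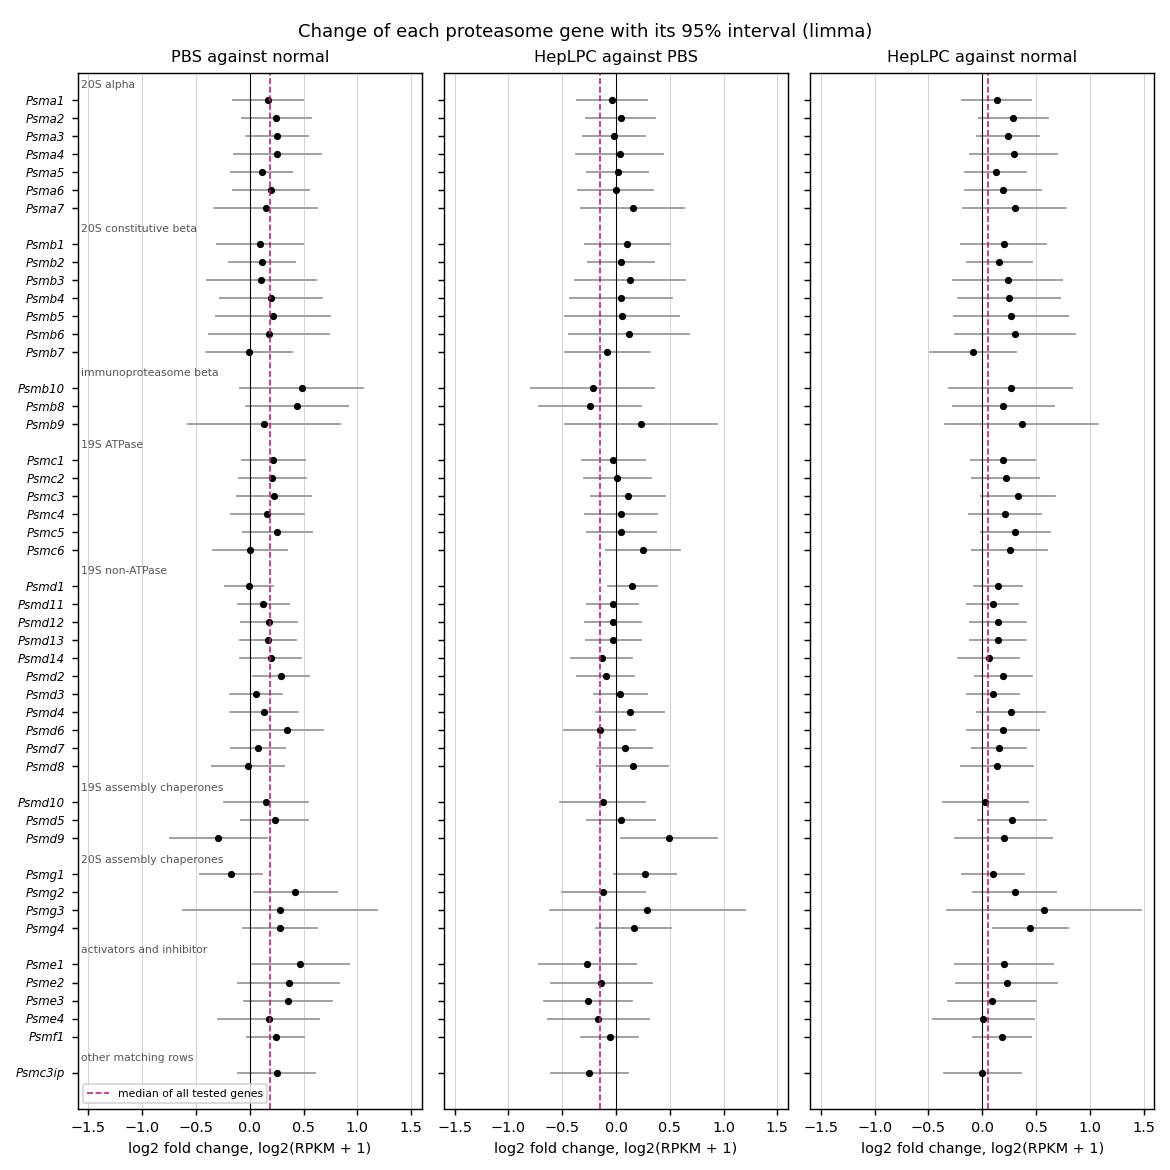
Log2 fold change (points) and 95% interval (bars) of each member in the 3 comparisons, on log2(RPKM + 1); the dashed line is the median of all 11124 tested genes and the solid line is 0. Intervals exclude 0 for 4, 1 and 1 members, none of them called, and Psmg3 has the widest.

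Among the immunoproteasome genes, Psmb8 was the one whose PBS libraries all lay above the normal ones. Psmb8, the inducible chymotrypsin-like subunit, measured 28.8, 28.3 and 24.2 RPKM in normal replicates 1 to 3, 44.8, 32.1 and 35.1 in PBS and 22.3, 33.9 and 39.7 in HepLPC livers. The PBS values lay wholly above the normal ones, and the HepLPC values spanned both. The log2 fold change for PBS against normal was 0.44 (SE 0.21, 95% interval -0.03 to 0.91, limma adjusted p = 0.213), and for HepLPC against PBS it was -0.24 (SE 0.21, adjusted p = 0.603). Such separation is common in these libraries: 32.7% of all tested genes had every PBS value above every normal one.

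Psmb10, the inducible trypsin-like subunit, measured 18.7, 22.5 and 18.4 RPKM in normal, 37.0, 21.8 and 27.1 in PBS and 17.4, 34.8 and 22.6 in HepLPC livers. PBS replicate 2 fell below normal replicate 2, so the groups overlapped, and the log2 fold change was 0.48 (SE 0.25, limma adjusted p = 0.260). Psmb9, which replaces the caspase-like Psmb6, measured 29.3, 36.7 and 26.8 RPKM in normal, 47.0, 31.4 and 25.9 in PBS and 25.4, 63.1 and 39.1 in HepLPC livers. Its highest values were in PBS replicate 1 and HepLPC replicate 2 and the remaining libraries intermixed, with a log2 fold change of 0.13 for PBS against normal (SE 0.32, adjusted p = 0.823). For HepLPC against normal it was 0.37 (SE 0.32, 95% interval -0.34 to 1.08), and without HepLPC replicate 2 it was 0.04. Without PBS replicate 1 the PBS against normal value of Psmb9 was -0.10 and that of Psmb10 0.29. Across the 3 genes the median log2 fold change for PBS against normal was 0.44, beside 0.18 over all tested genes. For HepLPC against PBS it was -0.22, beside -0.14 over all genes. With libraries rescaled by the median of ratios, the medians of these 3 genes were 0.20 and -0.03. Those of all genes were then -0.01 and 0.01.

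The constitutive counterparts overlapped between all groups. Psmb5 measured 55.2, 57.8 and 58.1 RPKM in normal, 82.4, 56.2 and 63.2 in PBS and 55.9, 103 and 56.6 in HepLPC livers. Psmb6 measured 55.5, 45.8 and 53.5 RPKM in normal, 73.5, 52.4 and 51.7 in PBS and 49.6, 96.8 and 53.6 in HepLPC livers. Psmb7 measured 77.7, 80.0 and 85.8 RPKM in normal, 88.3, 77.4 and 76.9 in PBS and 78.1, 97.4 and 58.3 in HepLPC livers. For all of these the single highest library was HepLPC replicate 2, and PBS replicate 1 was the highest of its group. Log2 fold changes for PBS against normal were 0.22 (SE 0.24), 0.18 (SE 0.25) and -0.01 (SE 0.18) for Psmb5, Psmb6 and Psmb7. Without PBS replicate 1 they were 0.06, 0.02 and -0.07.

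The ratio of an inducible subunit to the one it replaces does not depend on how libraries are scaled, though the partners differ in length (1086 bases for Psmb8 and 852 for Psmb5, 999 for Psmb10 and 972 for Psmb7). Psmb8 to Psmb5 was 0.521, 0.491 and 0.416 in normal, 0.544, 0.572 and 0.556 in PBS and 0.400, 0.329 and 0.701 in HepLPC livers. Psmb10 to Psmb7 was 0.240, 0.281 and 0.215 in normal, 0.419, 0.282 and 0.353 in PBS and 0.222, 0.357 and 0.388 in HepLPC livers. For both ratios each PBS library lay above each normal library, for Psmb10 by a margin of 0.282 against 0.281 at the closest. The difference in mean log2 ratio was 0.23 (SE 0.10) and 0.51 (SE 0.20), each with a 2-sided exact permutation p = 0.1, the smallest that 3 against 3 libraries allow. Adjusted over the 9 tests (3 ratios, 3 comparisons) it was 0.45. Psmb9 to Psmb6 averaged 0.610 ± 0.167 in normal, 0.580 ± 0.0708 in PBS and 0.632 ± 0.110 in HepLPC livers (SD, n = 3). The other 7 tests had exact p values from 0.3 to 0.9, all 0.9 after adjustment.

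**Figure D3:**
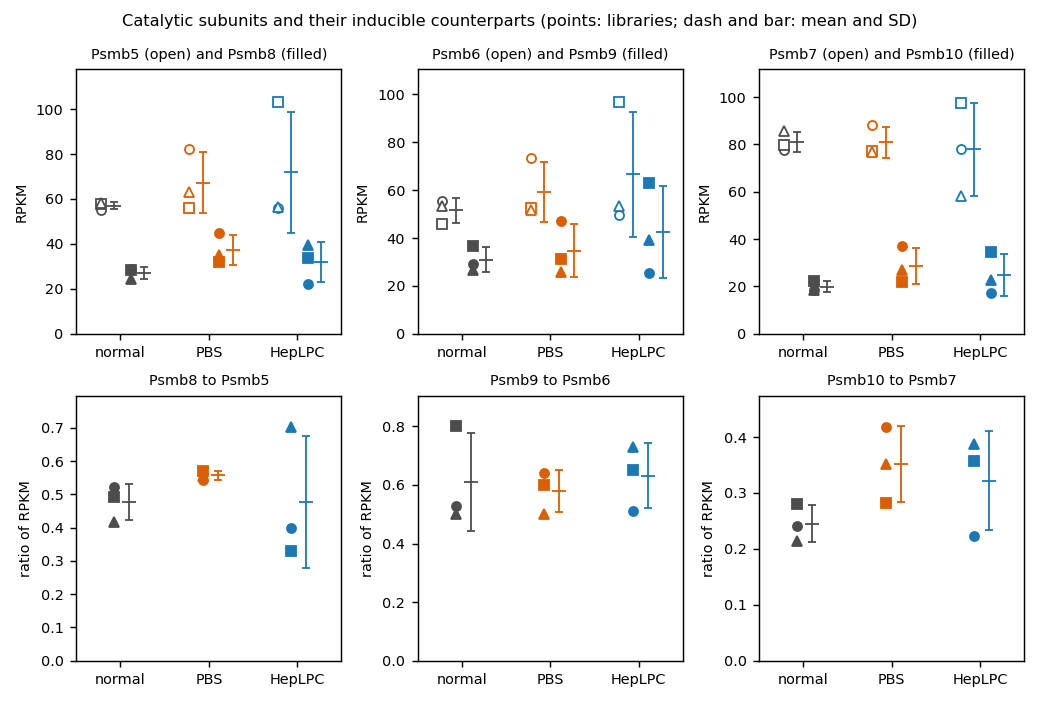
Upper row: RPKM of each constitutive catalytic subunit (open) and its inducible counterpart (filled) by group, with points for libraries (circle, square and triangle for replicates 1 to 3) and mean and SD beside them. Lower row: the ratio of inducible to constitutive RPKM in each library; the PBS ratios of Psmb8 to Psmb5 (0.544 to 0.572) and of Psmb10 to Psmb7 (0.282 to 0.419) lie above the normal ones.

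The activators and the inhibitor had the next largest median for PBS against normal, 0.35 over 5 genes, beside 0.18 over all tested genes. It was 0.12 with libraries rescaled by the median of ratios and 0.15 with the length trend subtracted. The median over all genes was -0.01 in both of those fits. Psme1 measured 135, 131 and 115 RPKM in normal, 204, 158 and 168 in PBS and 115, 200.4 and 134 in HepLPC livers. All PBS values exceeded all normal values, and HepLPC replicates 1 and 3 lay at the normal level (log2 fold change for PBS against normal 0.47, SE 0.20, limma adjusted p = 0.169; without HepLPC replicate 2, SE 0.13, adjusted p = 0.0438, where 16.3% of all genes were called). Psme2, the beta chain of PA28, measured 40.4, 44.9 and 41.2 RPKM in normal, 66.3, 47.4 and 51.3 in PBS and 38.0, 68.0 and 46.7 in HepLPC livers (0.36, SE 0.21, adjusted p = 0.298; 0.22 without PBS replicate 1). Its PBS values also lay above the normal ones, while the HepLPC values spanned the range of both.

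Psme3 and Psme4 encode nuclear activators, PA28 gamma and PA200, that interferon does not induce. Psme3 measured 13.1, 9.41 and 11.2 RPKM in normal, 12.9, 14.4 and 16.5 in PBS and 13.0, 9.22 and 14.3 in HepLPC livers (0.35, SE 0.18, limma adjusted p = 0.248). Psme4, the longest member at 7366 bases, measured 19.3, 17.4 and 19.5 RPKM in normal, 16.6, 24.5 and 23.8 in PBS and 20.9, 13.7 and 23.4 in HepLPC livers. In Psme4 the lowest libraries were PBS replicate 1 and HepLPC replicate 2, the same that were highest for Psmb5 and Psmb6. Psmf1, which encodes the inhibitor PI31, had every PBS value (28.4 to 32.3 RPKM) above every normal one (24.6 to 26.0), with a log2 fold change of 0.24 (SE 0.12, adjusted p = 0.226).

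In the 19S regulatory particle 0 of 17 subunit genes were called in any comparison. Of all tested genes 11.3% were called for PBS against normal, 3.07% for HepLPC against PBS and 0.0809% for HepLPC against normal. The non-ATPase genes had the lowest median SE of the classes of 3 or more genes (0.12). The 6 ATPases of the unfolding ring had a median log2 fold change of 0.21 in the first of these comparisons (PBS against normal) and 0.05 in the second (HepLPC against PBS). The 11 non-ATPase subunits had 0.13 and -0.02. Psmd2, a scaffold subunit of the base, measured 36.6, 31.6 and 34.1 RPKM in normal, 38.8, 43.4 and 43.4 in PBS and 42.0, 35.6 and 39.9 in HepLPC livers. Every PBS value exceeded every normal value (0.29, SE 0.12, 95% interval 0.03 to 0.55, limma adjusted p = 0.148). Psmd6, a subunit of the 19S lid, had the highest value of the 19S subunit genes in that comparison (0.35, SE 0.15, adjusted p = 0.167). It measured 26.4, 24.8 and 29.7 RPKM in normal, 41.0 (replicate 1), 29.7 and 33.7 in PBS and 27.8, 34.6 and 30.8 in HepLPC livers, and PBS replicate 2 lay just below normal replicate 3. Psmd1, the other large scaffold, was the steadiest member, at 32.5 to 38.3 RPKM over the 9 libraries and with a within-group SD of 0.050 on the log2 scale. Its HepLPC values (38.3, 35.6 and 38.3 RPKM) lay above those of both other groups, with a log2 fold change against PBS of 0.15 (SE 0.10, adjusted p = 0.50). Psmc3 and Psmc5, both ATPases, also had HepLPC values wholly above normal (0.33, SE 0.15, adjusted p = 0.554, and 0.31, SE 0.14, adjusted p = 0.556). The deubiquitinase subunit Psmd14 had 16.8, 18.7 and 20.8 RPKM in normal, 22.9, 18.96 and 22.9 in PBS and 18.8, 20.7 and 19.2 in HepLPC livers, overlapping throughout.

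The 20S alpha genes overlapped between PBS and normal livers in all 7 cases, with a median log2 fold change of 0.20 and a range of 0.11 to 0.26. The 7 constitutive beta genes had a median of 0.11 and a range of -0.01 to 0.22, and they overlapped as well. The direction depended on the scaling. With libraries rescaled by the median of ratios the alpha median was -0.04 and the beta median -0.13, with all 7 beta genes below 0. With the length trend subtracted these medians were 0.00 and -0.09. Of all tested genes 32.7% had every PBS value above every normal one and 4.92% had them below. For HepLPC against PBS the medians were 0.01 and 0.05, and for HepLPC against normal both were 0.24. Leaving out PBS replicate 1 and HepLPC replicate 2 took the PBS against normal medians to 0.09 and 0.00, and those for HepLPC against normal to 0.09 and 0.00.

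Members of the assembly chaperones differed in direction. Psmd9, a chaperone of the 19S base, measured 16.6, 17.9 and 14.9 RPKM in normal, 16.5, 13.0 and 10.7 in PBS and 18.1, 24.9 and 15.2 in HepLPC livers. It is the member with the lowest log2 fold change for PBS against normal (-0.29, SE 0.20, limma adjusted p = 0.387) and the highest for HepLPC against PBS (0.49, SE 0.20, adjusted p = 0.264), and the latter was 0.31 without HepLPC replicate 2. Without PBS replicate 1 the former was -0.44, and without PBS replicate 3 it was -0.15. Psmg2, which pairs with Psmg1 to build the alpha ring, measured 5.37, 5.42 and 4.47 RPKM in normal, 8.68, 5.90 and 7.03 in PBS and 6.43, 7.93 and 5.31 in HepLPC livers (PBS against normal 0.42, SE 0.17, adjusted p = 0.150). Its partner Psmg1 lay the other way, at 18.5, 16.7 and 16.7 RPKM in normal, 16.8, 14.7 and 14.2 in PBS and 17.2, 21.5 and 17.3 in HepLPC livers (-0.18, SE 0.13, adjusted p = 0.420). Every HepLPC value of Psmg1 exceeded every PBS value (0.27, SE 0.13, adjusted p = 0.342; 0.17 without HepLPC replicate 2).

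Psmg4 measured 7.96, 7.98 and 8.40 RPKM in normal, 10.8, 9.09 and 10.4 in PBS and 10.2, 14.7 and 9.81 in HepLPC livers. Both injected groups lay wholly above normal, and the log2 fold change for HepLPC against normal was 0.45 (SE 0.15, 95% interval 0.10 to 0.79, limma adjusted p = 0.399; 0.28 without HepLPC replicate 2). Psmg3, its binding partner, was the most variable member (within-group SD 0.600), with 25.9 RPKM in HepLPC replicate 2 against 8.34 and 8.26 in the other HepLPC libraries. The 3 genes of the 19S base chaperones had a median of 0.15 and the 4 Psmg genes one of 0.28 for PBS against normal.

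Counting over all classes, 10 of 47 members had every PBS value above every normal value and 0 had them below, where 32.7% and 4.92% of all genes did. The 10 were Psmb8, Psmc1, Psmd2, Psmd11, Psmd13, Psme1, Psme2, Psmf1, Psmg2 and Psmg4. For HepLPC against PBS 2 of 47 lay wholly higher (Psmd1 and Psmg1) and 0 lower, where 2.79% and 15.6% of all genes did. For HepLPC against normal 7 lay wholly higher (Psma7, Psmc1, Psmc3, Psmc4, Psmc5, Psmd1 and Psmg4) and 0 lower, where 12.3% and 3.51% of all genes did. The comparisons share libraries, so their counts are not independent.

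Replicates of 1 group differed within the family, and these differences followed gene length. The ratio of a member's highest to its lowest library had a median of 1.57 (range 1.18 to 4.52), and it was under 2 for 40 of 47 members. The highest library was HepLPC replicate 2 for 25 members and PBS replicate 1 for 12. Over all tested genes, the deviation from the group mean fell with gene model length in these libraries (Spearman correlation -0.528 and -0.564, across 11124 genes), and it lay between -0.157 and 0.423 in the others. Over the 47 members the correlations were -0.690 and -0.648. Genes of a library share its depth and preparation, so these correlations describe the libraries, and deviations sum to 0 within a group.

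All 19 members under 1200 bases lay above their group mean in PBS replicate 1 (median deviation 0.23 on the log2 scale) and in HepLPC replicate 2 (median 0.38). In the remaining PBS and HepLPC libraries 1 or 2 of the 19 did. The 10 members over 2200 bases had median deviations of 0.00 and -0.06 in those 2 libraries. These length limits were chosen after the values were seen. Of the 17 genes of the 20S core, 16 are under 1200 bases, and of the 30 other members 3 are, so core membership and short length cannot be told apart here. Proteasome genes are shorter than most (median 1358 bases against 2592.5 over all tested genes). Even so, the members' median within-group SD was 0.183, beside 0.217 over all tested genes and 0.208 over the 2584 genes of like level.

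**Figure D4:**
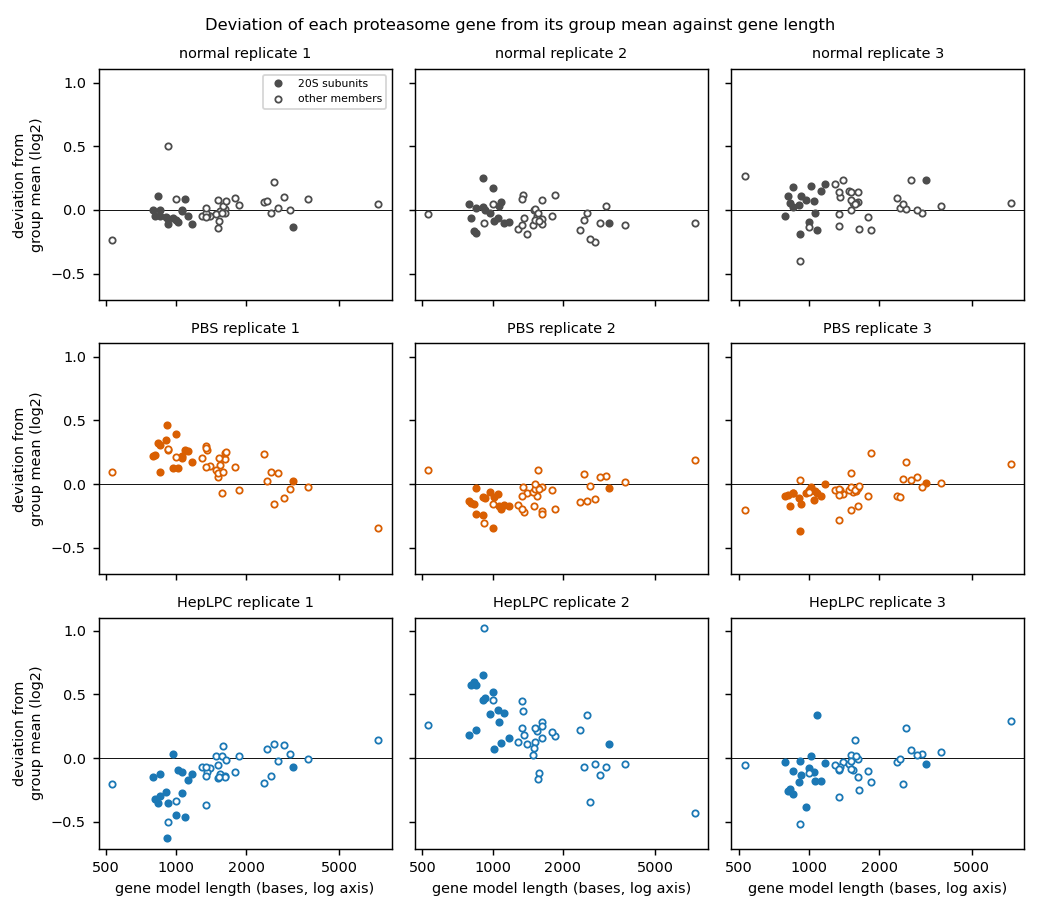
Deviation of each member from its group mean (log2) against gene model length (bases, log axis), 1 panel per library; filled points are the 17 genes of the 20S core. In PBS replicate 1 and HepLPC replicate 2 genes under 1200 bases lie above 0 and the longest gene below, with Spearman correlations of -0.648 and -0.690.

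With both of these libraries left out, 3 members passed for PBS against normal, where 28.5% of all tested genes did. Psmd2 rose by 0.34 (SE 0.10, limma adjusted p = 0.0363) and Psme4 by 0.35 (SE 0.10, adjusted p = 0.0357), while Psmd9 fell by 0.44 (SE 0.13, adjusted p = 0.0420). With libraries weighted by their estimated quality 5 passed, where 34.4% of all genes did: Psmd2, Psme1, Psme3 and Psmg2 higher and Psmd9 lower. With the length trend of each library subtracted Psmg1 alone passed (-0.39, SE 0.10, adjusted p = 0.0482), where 10.2% of all genes did. In that fit Psmd2 (2897 bases) was at 0.09 (limma adjusted p = 0.560) and Psme4 (7366 bases) at 0.02 (adjusted p = 0.915). Psmd9 was at -0.49 (adjusted p = 0.0949). No catalytic subunit, inducible or constitutive, passed in any of the 24 alternatives. The 3 immunoproteasome genes had log2 fold changes of 0.30 (Psmb8), -0.10 (Psmb9) and 0.29 (Psmb10) without both libraries, with adjusted p from 0.188 to 0.727.

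Genes that act with the proteasome were called no more often for PBS against normal than all tested genes (11.3%), and those called were Usp14 and Ubqln2. Of 12 tested partners and regulators, 1 rose for PBS against normal: Usp14, a deubiquitinase bound to the 19S particle, from 10.3 ± 1.16 to 14.3 ± 1.20 RPKM (SD, n = 3; log2 fold change 0.45, SE 0.12, limma adjusted p = 0.0464). In the other comparisons 0 of 12 passed. Nfe2l1, the activator of subunit genes, measured 16.9, 16.6 and 15.9 RPKM in normal, 15.6, 21.5 and 19.7 in PBS and 15.7, 11.5 and 18.1 in HepLPC livers (PBS against normal 0.18, SE 0.17, adjusted p = 0.553). Nfe2l2 was at 41.3 ± 8.61, 50.8 ± 10.3 and 45.2 ± 8.12 RPKM in normal, PBS and HepLPC livers (SD, n = 3; adjusted p = 0.402 for PBS against normal). Pomp, which assembles new cores, was at 2.63 ± 0.337, 3.11 ± 0.442 and 2.47 ± 1.24 RPKM (adjusted p = 0.662). Of 15 ubiquitin genes and shuttle factors 1 rose for PBS against normal, the shuttle Ubqln2 (0.57, SE 0.12, adjusted p = 0.0183), and 0 passed in the other comparisons. Without PBS replicate 1 and HepLPC replicate 2, 3 of 12 partners and 3 of 15 ubiquitin genes rose for PBS against normal, where 28.5% of all genes were called.

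Of 14 tested known targets of NRF2, 12 rose for PBS against normal (median log2 fold change 1.96), where 11.3% of all tested genes were called. For HepLPC against PBS 8 fell (median -1.42), where 3.07% of all genes were called. For HepLPC against normal 0 of 14 passed, where 0.0809% of all genes did. Without PBS replicate 1 and HepLPC replicate 2 the counts were 12, 2 and 0, where 3168, 390 and 16 of 11124 genes were called. Gpx2, a glutathione peroxidase, rose by 4.03 (SE 0.32, limma adjusted p = 0.000217) and fell by 3.07 (SE 0.32, adjusted p = 0.00248). Over the 47 proteasome members the medians in the same comparisons were 0.19 and 0.04. Among the 7 members whose promoter window holds the antioxidant core, the log2 fold changes for PBS against normal were 0.25 (Psma3), 0.22 (Psmb5), 0.18 (Psmb6), 0.18 (Psme4), 0.11 (Psmb2), -0.01 (Psmd1) and -0.29 (Psmd9).

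Genes of antigen presentation and of the interferon gamma response were set beside the inducible subunits. Of 14 tested MHC class I presentation genes 0 passed in any comparison (11.3% of all genes did for PBS against normal), and 3 rose for PBS against normal without PBS replicate 1 and HepLPC replicate 2, where 28.5% of all genes were called. The peptide transporter Tap1 was at 7.72 ± 1.44, 7.31 ± 1.48 and 6.81 ± 1.90 RPKM in normal, PBS and HepLPC livers, and B2m, the class I light chain, at 1056 ± 67.3, 985 ± 165 and 1070 ± 280.4 RPKM (SD, n = 3). Tap2 was below the filter, at 0.134 to 0.605 RPKM in normal livers and 0.0640 to 0.462 in the injected groups. Of 13 tested interferon gamma response genes, a list that includes Psme1 and Psme2, 2 rose for PBS against normal: Irf8 (0.87, SE 0.15, limma adjusted p = 0.00586) and Ifi47 (1.27, SE 0.22, adjusted p = 0.00640). Irf8, a transcription factor of myeloid and B cells, fell for HepLPC against PBS (-0.73, SE 0.15, adjusted p = 0.0326), and without the same libraries 3 rose in the first comparison and 0 fell in the second. Irf1, a transcription factor of the interferon response, did not pass: its log2 fold change for PBS against normal was 0.25 (SE 0.21, limma adjusted p = 0.50). Ifng itself was listed at 0 in 7 of the 9 libraries.

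Markers of other liver cells moved between the groups, and their part in the values of Psmb8, Psmb10, Psme1 and Psme2 was not tested. Of 14 tested leukocyte markers 6 rose in PBS over normal livers and 1 fell in HepLPC against PBS. Of all tested genes 11.3% and 3.07% were called in these comparisons, in either direction. The RPKM of all 18 markers of that list summed to 188 to 195 in normal, 360 to 439 in PBS and 212 to 384 in HepLPC livers, and no marker was at 0 in any library. Such a sum is weighted to the most abundant markers and does not measure the share of leukocytes. The median log2 fold change of the 14 tested markers was 0.63 for PBS against normal, beside 0.18 over all genes. For HepLPC against PBS it was -0.52, beside -0.14. Within the HepLPC group the sum was highest in replicate 3, at 384, which had the highest Psmb8 value. It was nearly equal in replicates 1 and 2, at 214 and 212. Replicate 1 had the lowest Psmb8, Psmb10, Psme1 and Psme2 values of the group, and replicate 2 the highest Psmb10, Psme1 and Psme2 values. In replicate 2 all 19 members under 1200 bases, Psmb8, Psmb10 and Psme1 among them, lay above their group mean, while Psme2 has 1343 bases and is not one of the 19. These are single libraries, and the part of the leukocyte sum or of gene length in their values was not tested. Of the tested markers for PBS against normal, 7 of 8 for bile duct cells, 7 of 9 for stellate cells and myofibroblasts, 2 of 10 for endothelium and 10 of 10 for proliferation rose. For HepLPC against PBS 7, 3, 1 and 1 of these fell. Among all tested genes 10.4% rose in the first comparison and 326 of 11124 fell in the second. Without PBS replicate 1 and HepLPC replicate 2, 5 of 10 endothelial markers rose in the first comparison, and 2 leukocyte and 2 endothelial markers fell in the second. Of all 11124 genes, 2895 then rose in the first and 364 fell in the second. Of 10 hepatocyte markers 0 passed in any comparison with all libraries and 1 fell for PBS against normal without those 2 libraries. Their RPKM summed to 79801 to 102948 over the 9 libraries.

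Depth was 17.4 to 21.8 M reads per library, recovered from the steps of the RPKM values, and a member had 23 to 3879 reads in a library. Of the members, 19 have named pseudogenes in the RefSeq gene table, with 7 for Psmb3, 5 for Psma6 and 4 for Psme3, and the sources used here do not say how shared reads were counted, so the levels of these genes are uncertain.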

How the data were processed

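Values deposited by the authors are RPKM per gene, per the file headers, in 40154 rows for each of 9 rat liver libraries (3 normal, 3 PBS, 3 HepLPC; groups and replicate numbers from the sample titles). Per the labels' protocols, RNA was isolated with TRIzol, treated with DNase I and made into TruSeq libraries. HISAT2, StringTie and the human build hg19 are named in the submitters' processing notes, although rows carry rat symbols, so the build behind the values is uncertain and no gene coordinates from it are given.

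limma 3.58.1 in R 4.3.3 (lmFit, contrasts, eBayes with trend, 2-sided) was fitted to log2(RPKM + 1) of the 11124 genes that reached 1 RPKM in 3 or more libraries, with a term per group and 6 residual degrees of freedom. Fold changes are differences on that scale and understate those of low genes. Calls needed a Benjamini-Hochberg adjusted p under 0.05. Whole reads (all 20959 genes above 0 in 3 or more libraries, within 0.01 read) and gene lengths were recovered from the RPKM steps and gave depths of 17.4 to 21.8 M. Replicates differed beyond sampling noise. Intervals are 95% intervals from limma. Ratios were tested by exact permutation. The script was tested on simulated data with 200 genes changed in each comparison. Of 1.5-fold changes 12.3% were called for PBS against normal, 8.70% for HepLPC against PBS and 3.08% for HepLPC against normal. Of 2-fold changes 50%, 49.2% and 32.4% were called. Each share rests on 64 to 69 genes. Apart from the changed genes, all groups were given the same means and spread, so the shares do not rank the 3 comparisons. Genes were drawn independently, without the length trends of the real libraries. The 200 changed genes are also fewer than the 1262 called for PBS against normal, so detection in the real data may differ. The alternatives changed the pseudocount, filter, scaling, libraries, replicate block, variance estimate, quality weights, length trend and unit.

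Named genes were the inducible subunits, their counterparts, Psme1, Psme2, called genes by adjusted p and 8 regulators. Other members were named after their values were seen. Members and lists were chosen with earlier results of these data known. The values of a gene in the interferon gamma response list are not reported here.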

Additional observations from a re-analysis of the deposited data

How the results depend on the processing

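In PBS against normal the number of members called was 0 of 47 and became 1 without HepLPC replicate 2, 3 with PBS replicate 1 and HepLPC replicate 2 left out together, 5 with library quality weights and 1 with the gene length trend subtracted. Leaving out each library in turn gave 0 to 1, and the other alternatives gave 0. In HepLPC against PBS and HepLPC against normal it was 0 under all 24 alternatives. The 3 ratios were recomputed with 1 added to each RPKM and with libraries left out, but not with the length trend subtracted. Their differences moved by less than the SD between replicates under every alternative run for them. Leaving out 1 of 3 libraries in a group cannot move a difference past that SD, so those alternatives say nothing about stability. The medians over each class and over all members were recomputed under all alternatives. The replicate block, the variance estimate and leaving out libraries of a group not compared cannot change a log2 fold change. Those medians therefore stayed the same by construction. Counting them in, 40 medians moved by more than the SD between replicates and 608 did not. The cause of these changes was not tested. Calls among all genes for PBS against normal were 1262, 782 with median-of-ratios rescaling, 714 with quantile normalization, 3168 without both libraries and 3827 with quality weights.

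With the replicate number as a block (replicate block), 0 of 47 members were called in each comparison. The numbers did not pair the libraries: correlations of same-numbered libraries ran from -0.412 to 0.31, 3 of 9 were above 0.1, and 5 of 18 matched their own number best. With 3 libraries a group, the count of 0 does not show that levels did not differ.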
